A study of Bos taurus with 12 samples.

Results

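ARHGAP15, DOCK2 and JAM2 are 3 cattle genes of leukocyte migration, and the rows described here are those that the authors' deposited tables assign to one of these symbols. They number 103 single CpG cytosines (sites) of 196275 and 2 windows of 500 bases (tiles) of 1227, which makes 105 of 197502 rows. ARHGAP15 has 46 sites and 1 tile, DOCK2 has 21 sites and 1 tile, and JAM2 has 36 sites and no tile. Each row gives percent methylation in the whole blood DNA of 12 cows of 1 farm, read after enzymatic conversion of unmodified cytosines. The MSG group (6 cows) left the herd within 1 year of sampling because of mastitis complications that were not known at sampling. The MRG group (6 cows of similar age) was still in the herd. All cows were kept under the same conditions, none was given an agent, and the labels' word "genotype" for the groups names this outcome and no allele. Breed, parity, batch and blood cell counts were not given.

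The rows were chosen by the authors from these cows for a difference between the groups, and the genes were picked with their counts of higher and lower sites known. All values of MSG against MRG below are therefore a description and carry no test. In the authors' deposited table of sites, absolute differences began at 25.0026 points over the whole table and at 25.3 points among the 103 sites, and rows under that limit were not analysed here. No depth could be tied to a cow, so the spread between cows is the only measure of error. Whole blood mixes many cell types, so a different share of a cell type and a different methylation level within one cannot be told apart.

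A leukocyte leaves the blood by arresting on the vessel wall, opening its junctions and crawling through, and the crawling is driven by actin polymerised under the small GTPase RAC. DOCK2, studied mainly in mouse and human, is the exchange factor that switches RAC on in blood cells after chemokine receptors are engaged. ARHGAP15 is a GTPase activating protein that switches RAC off, known from human cells and from mouse neutrophils and macrophages. JAM2, also called JAM-B, is an adhesion molecule of endothelial junctions that binds JAM3 and an integrin on leukocytes, from work in human and mouse. Methylation of a promoter often goes with low transcription and methylation of a gene body often with active transcription, but no RNA was measured here.

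The genes differed in the direction that prevailed among their sites. In ARHGAP15, 8 sites were higher and 38 lower in MSG (17.4% higher). In DOCK2, 15 were higher and 6 lower (71.4% higher), and in JAM2, 26 were higher and 10 lower (72.2% higher). Of all listed sites, 52.7% were higher and 47.3% lower in MSG. These counts took part in the choice of the genes and are not evidence for a direction. The shares also depended on the sites kept. ARHGAP15 had 85.7% higher among its 7 sites with no cow at 0. DOCK2 had 40% higher (2 of 5) among sites with an authors' deposited difference of 40 points or more. Dropping sites with a cow at 0 uses the values that set the direction, so it is no independent check of it. MSG replicate 3 was at 0 at 37 sites of ARHGAP15, all of them lower in MSG, and this filter removes them. At 1 of the 103 sites, in DOCK2, no MSG cow overlapped an MRG cow, beside 2.36% of all listed sites.

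**Figure D1:**
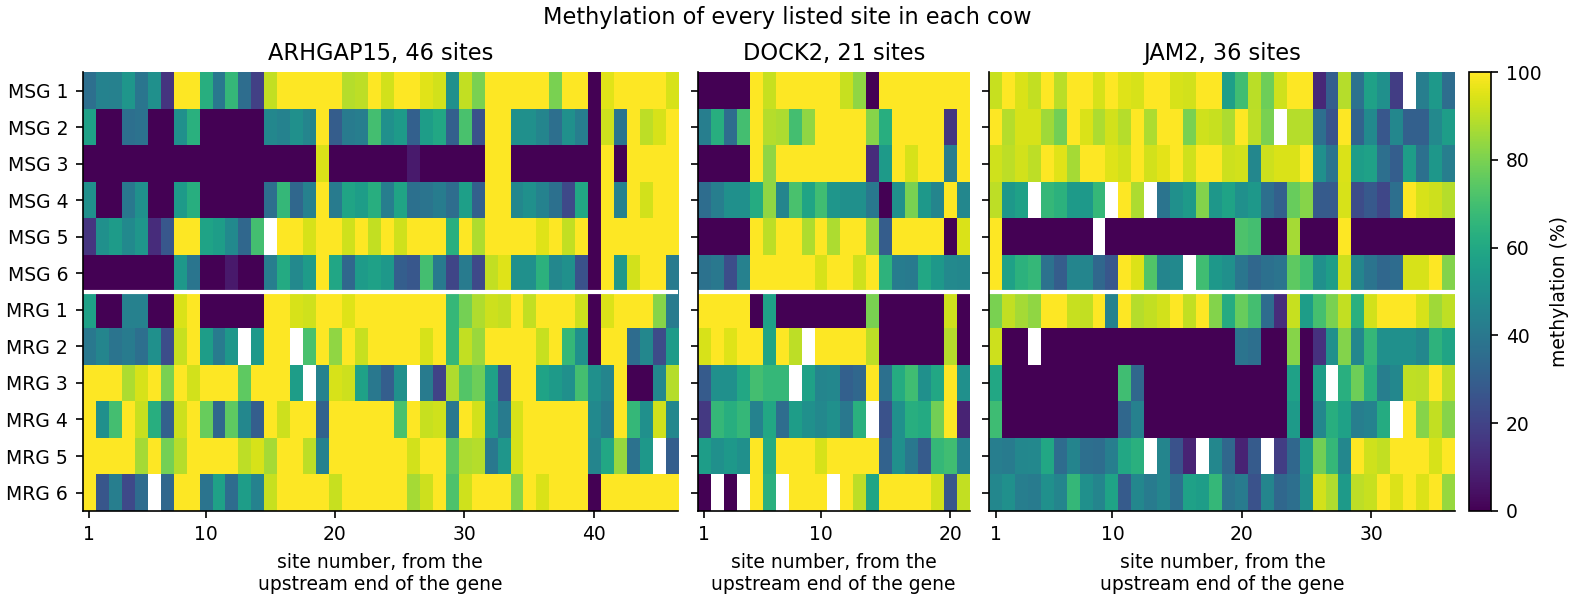
Percent methylation of every listed site (columns, ordered from the upstream end of each gene) in each cow (rows, MSG above and MRG below the white line), with white cells where a cow had no value. MSG replicate 3 is at 0 along most of ARHGAP15, MRG replicate 1 along a stretch of DOCK2, and MSG replicate 5 with MRG replicates 2, 3 and 4 along much of JAM2.

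The levels of single cows were mostly low, intermediate or high. Of the 1209 values of a cow at a site, 219 (18.1%) lay between 0 and 10%, 392 (32.4%) between 30 and 70%, and 463 (38.3%) between 90 and 100%. Over all listed sites these shares were 22.3%, 32.0% and 27.3%, so such levels were common in the whole table. JAM2 alone, at 22.4%, 35.3% and 27.7%, was close to them. The remaining 135 values of the genes made up 11.2%, against 18.5% over all listed sites. By gene, 9.17% of the values of ARHGAP15, 9.80% of DOCK2 and 14.6% of JAM2 fell outside the 3 bands. The limits of the bands were chosen after the values were seen. In this assay a thymine in a cow's own DNA is read like an unmethylated cytosine. Whether sequence variants lie at these sites was not tested.

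**Figure D2:**
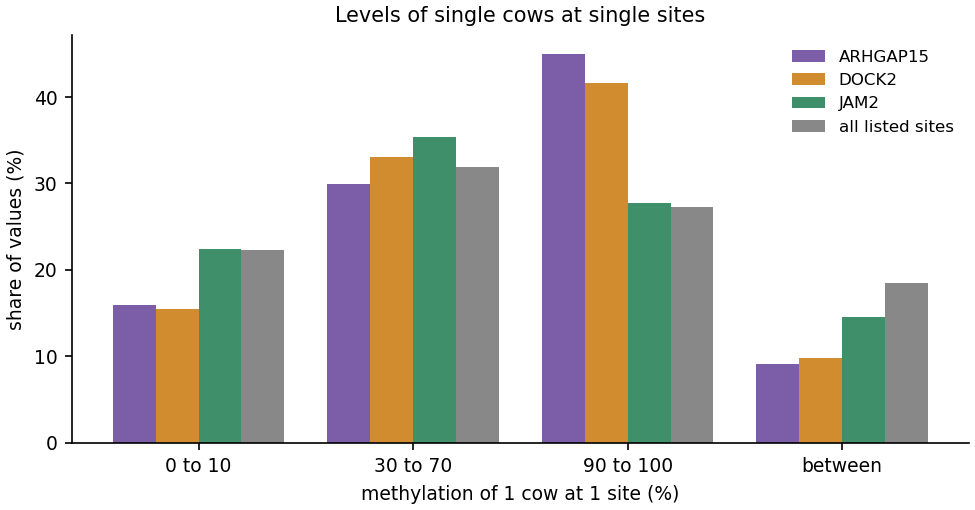
Share of single values (1 cow at 1 site) in 3 bands of percent methylation and between the bands, for each gene and for all listed sites. Outside the 3 bands lie 9.17% to 14.6% of the values of each gene, against 18.5% over all listed sites.

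At most sites some cow was listed at exactly 0. This held for 39 of 46 sites of ARHGAP15 (84.8%), 20 of 21 of DOCK2 (95.2%) and 33 of 36 of JAM2 (91.7%), beside 78.3% of all listed sites. The cow most often at 0 differed by gene. In ARHGAP15, MSG replicate 3 was at 0 at 37 sites, while MSG replicates 2, 4 and 6 and MRG replicate 1 were at 0 at 10 to 12 sites and the other cows at 0 to 2. In DOCK2, MRG replicate 1 was at 0 at 14 sites, MRG replicate 2 at 6, MSG replicates 1 and 5 at 5 each, MSG replicate 3 at 4, and the other 7 cows at 0 to 2. In JAM2, MSG replicate 5 was at 0 at 30 sites and MRG replicates 2, 3 and 4 at 20 to 21, and the other 8 cows were at 0 at none. Over all listed sites no cow stood out, with 20.1% to 23.0% of its values at 0.

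Both strands of a CpG gave near values. The tables held both strands for 17 CpGs of ARHGAP15, 5 of DOCK2 and 7 of JAM2, and the strands of every one of these pairs pointed the same way. The median gap between strands within a cow was 5.30 points in ARHGAP15, 1.71 in DOCK2 and 5.26 in JAM2, against 5.56 over the 43073 pairs of all listed sites. The largest gaps within the genes were 46.4, 50 and 47.2 points. All 43073 pairs shared a direction, and both strands had been selected on the same contrast.

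DOCK2, the activator of RAC, lies on the plus strand of chromosome 20 (models from 1562432 to 2001666, ARS-UCD1.2). Of its 21 sites, 12 were intronic, 3 in promoters and 6 intergenic, and 15 lay inside the union of the 6 gene models given. They reached from 38.4 kb before the first start to 98.9 kb into a locus of 439 kb, so most of the gene body held no listed site. Averaged over its 15 higher sites, the MSG cows had 54.5%, 92.7% and 97.8% as lowest, median and highest value, and the MRG cows 3.81%, 53.3% and 95.2%. The means were 85.5% ± 16.4 and 54.8% ± 30.5 (SD, n = 6 each), a difference of 30.6 points that is close to the spread between MRG cows. The groups overlapped, since MSG replicate 4 was low and MRG replicate 6 high, and the difference was 20.4 points without MRG replicate 1. Over the 6 lower sites MSG averaged 32.2% ± 20.8 and MRG 67.0% ± 27.1, with MRG replicate 6 at 21.5%. MRG replicate 6 had no value at the lower sites 1524022 and 1524225.

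The site with no overlap lay 4.27 kb upstream of the first start of DOCK2, on the minus strand (chromosome 20, 1558165). The MSG cows ran from 83.3% through a median of 89.4% to 100%, and the MRG cows from 57.1% through 60.8% to 66.7%. The means were 89.5% ± 6.19 and 61.2% ± 3.52 (SD, n = 6 each), and the difference of 28.3 points exceeded the spread within either group. Naming the site for its lack of overlap, found at 2.36% of all listed sites, favours such a gap. It was the only DOCK2 site at which no cow was at 0. The cytosine on its other strand was not in the table, and no other site of DOCK2 shared its order of cows.

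The sites of DOCK2 fell into few orders of cows. Sites of a gene were joined when their profiles over the cows were alike (average linkage at a Pearson r of 0.8, a rule set after the values were seen), which gave 7 groups of sites in DOCK2. The largest held 8 sites over 58.9 kb, from 25.8 kb upstream to intron 8, and included all 3 promoter sites. Its per-cow means were 0% in MRG replicate 1, 48.3% and 49.9% in MRG replicates 4 and 3, 57.3% in MSG replicate 4, and 92.6% to 100% in the other 8 cows. The difference of 24.6 points rested in part on that cow at 0. With any 1 cow left out it ran from 11.5 points, without MRG replicate 1, to 31.3 points, without MRG replicate 5.

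The promoter sites of DOCK2 illustrate this order. The site 437 bases inside one start (1575425, minus strand) ran from 58.3% through 94.1% to 100% in MSG and from 0 through 57.1% to 100% in the 5 MRG cows with a value. Its means were 88.3% ± 16.3 and 61.4% ± 41.5. The site 2973 bases inside another start (1566799) had means of 88.8% ± 21.8 and 60.5% ± 43.1, and the site 10.4 kb past the first start and upstream of a later one (1572829) had 90.2% ± 15.1 and 69.1% ± 42.7, again with 5 MRG cows. At each of them MRG replicate 1 was at 0 and the groups overlapped.

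The widest rises in DOCK2 lay deeper in the gene, at the 5 sites of introns 21 and 22 that formed the next group. The site at 1661352 ran from 46.2% through 97.2% to 100% in MSG and from 0 through 27.2% to 90.9% in MRG, with means of 81.1% ± 27.2 and 32.6% ± 36 (SD, n = 6 each). The site at 1644785 had means of 85.6% ± 22.5 and 39.9% ± 38.7. Over the 5 sites MRG replicates 1 and 2 were both at 0%, and 4 MSG cows and MRG replicate 6 were between 96.8% and 100%. MSG replicates 4 and 6 lay among the remaining MRG cows.

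The lower sites of DOCK2 were densest upstream. The 4 sites between 1524021 and 1524225, 38.2 to 38.4 kb before the first start, are both strands of a pair of CpGs, and their mean was 22.3% ± 24.9 in MSG and 58.3% ± 37 in MRG. At 1524224 the MSG cows ran from 0 through 11.8% to 50% and the MRG cows from 0 through 57.9% to 100%, and at 1524021 the means were 19.3% ± 21.3 and 49.1% ± 41.3. MSG replicates 1, 3 and 5 were at 0% over the 4 sites, and MRG replicates 1 and 2 stood at 100% and 97.2%. MRG replicate 6 was at 0% at the plus-strand sites and had no value at the minus-strand sites, where the other MRG cows were at 50% or more. It entered the MRG mean of 58.3% as 0%.

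The DOCK2 tile covers these sites (chromosome 20, 1523751 to 1524250). The MSG cows ran from 38.2% through 52.5% to 69.9% and the 5 MRG cows with a value from 65.4% through 69.8% to 96.7%. The means were 53.1% ± 13.7 (n = 6) and 79.0% ± 15.7 (n = 5), a difference of 26.0 points. The groups overlapped by MSG replicate 2 alone. MRG replicate 6, at 0% at the plus-strand sites and without a value at the minus-strand ones, had no tile value. The MSG cows at 0% over the 4 sites were at 38.2% to 44.3% in the tile, which also averages cytosines that are not listed. Both tiles of the genes were lower in MSG, as were 43.8% of all listed tiles. Of all listed tiles, 6.03% had no overlap between the groups, and neither the DOCK2 nor the ARHGAP15 tile was among them.

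**Figure D3:**
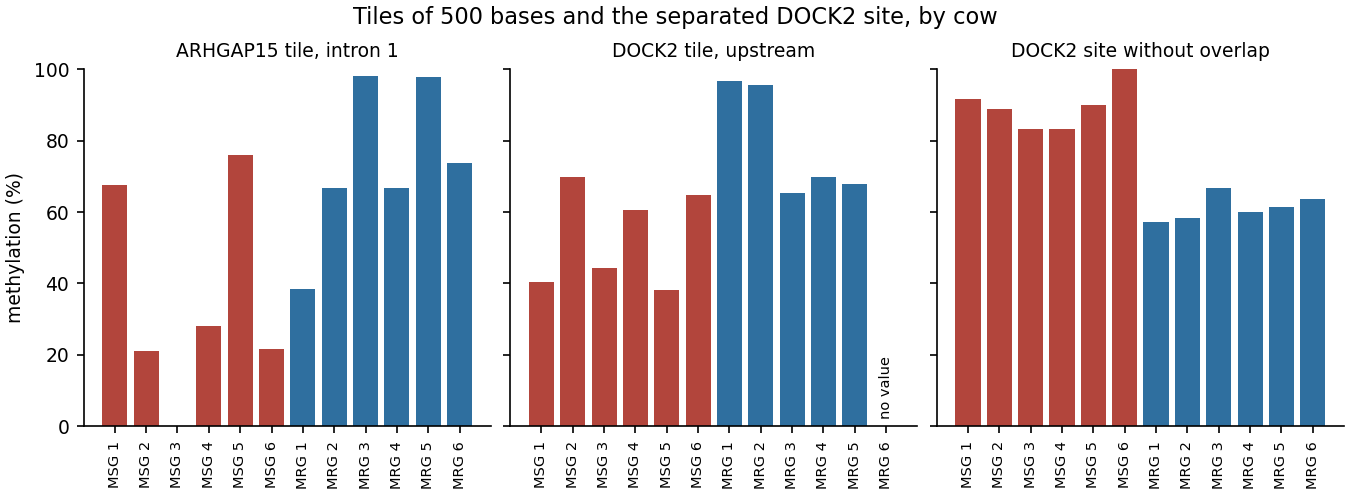
Percent methylation by cow in the ARHGAP15 tile of intron 1, the DOCK2 tile upstream of the gene (MRG replicate 6 without a value) and the DOCK2 site at which the groups did not overlap. In the tiles the groups overlap, and at the site every MSG cow is at 83.3% or more and every MRG cow at 66.7% or less.

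ARHGAP15, the brake on RAC, lies on the minus strand of chromosome 2 (52965089 to 53630365, 665 kb). All 46 sites were intronic, and none was in a promoter or exon. The 38 lower sites lay between 7.43 and 174 kb from the start, in introns 1 to 5, and the 8 higher sites between 60.5 and 384 kb. All 14 sites of intron 1 were lower in MSG, as were the 4 of intron 3 and the 5 of intron 4, while intron 5 held 6 higher and 11 lower sites.

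**Figure D4:**
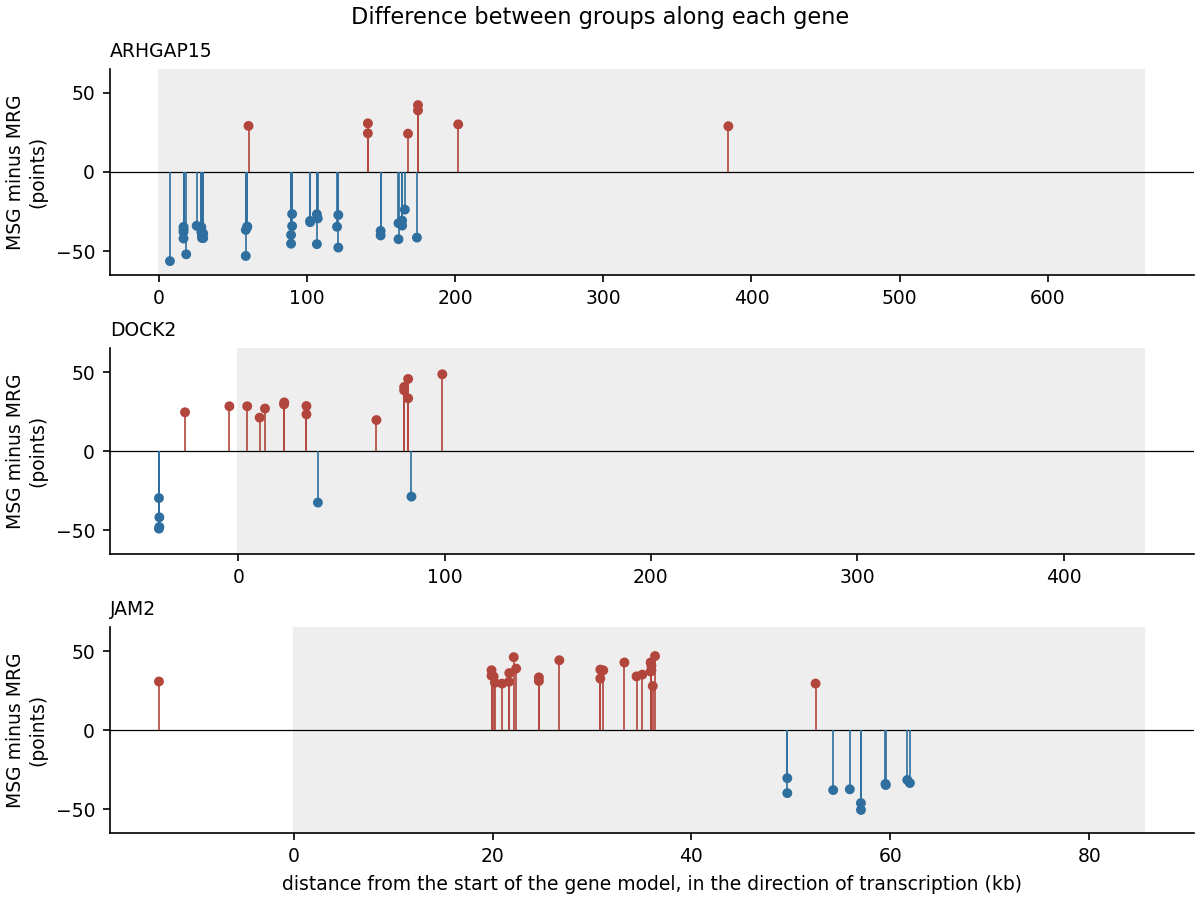
Difference of the group means (MSG minus MRG, percentage points) at each listed site against the distance from the start of the gene model in kb, with the model shaded, red for higher and blue for lower in MSG. All lower sites of ARHGAP15 lie within 174 kb of its start. In JAM2 higher sites at 19.9 to 36.3 kb are followed by lower sites at 49.6 to 62.0 kb. A higher site at 52.5 kb lies among these lower sites, and another higher site lies 13.5 kb upstream of the model.

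Over the 38 lower sites of ARHGAP15 the MSG cows ran from 0.188% through 34.3% to 76.6% and the MRG cows from 66.8% through 78.5% to 94.3%. The means were 41.8% ± 29.3 and 79.3% ± 9.29 (SD, n = 6 each). MSG replicates 1 and 5 lay among the MRG cows, and the other 4 MSG cows below all of them. Over the 8 higher sites the MSG cows ran from 90.1% through 98.9% to 100% and the MRG cows from 38.4% through 61.5% to 100%, with means of 97.4% ± 3.70 and 65.8% ± 24.5. All MSG cows were highly methylated there, while MRG replicates 2 to 5 were at 38.4% to 69.9%.

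**Figure D5:**
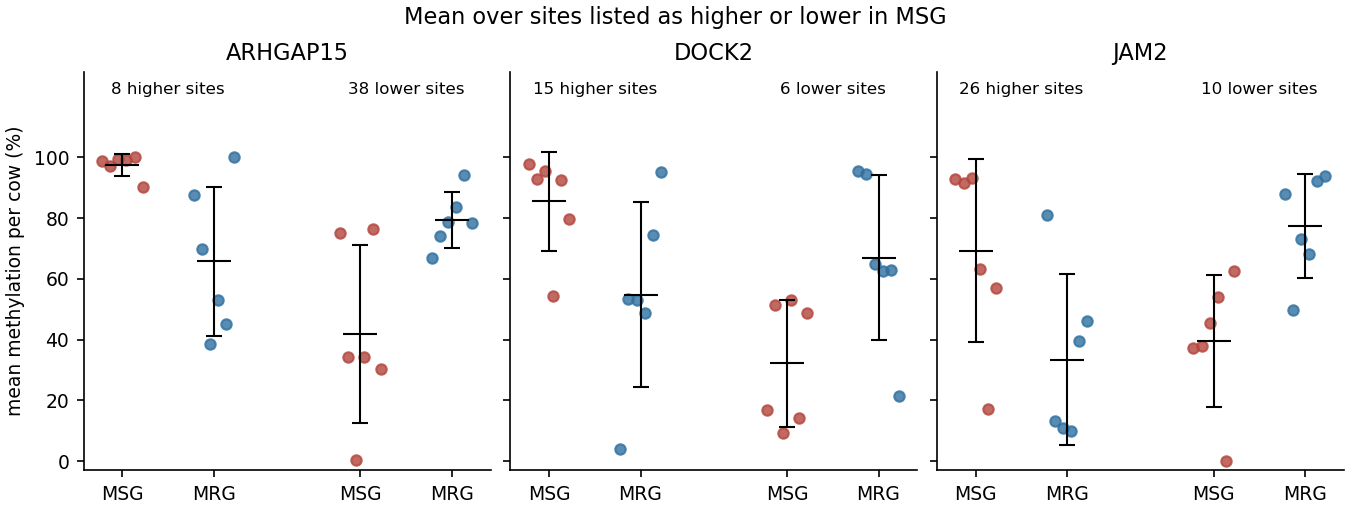
Mean methylation per cow over the sites of each gene that are higher and lower in MSG, with 1 point per cow and the mean ± SD of 6 cows per group. The groups overlap in all 6 comparisons, and the lowest MSG cow is MSG replicate 3 for the lower sites of ARHGAP15 and MSG replicate 5 for the sites of JAM2.

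One order of cows ran through 24 sites over 146 kb of ARHGAP15, from intron 5 to intron 1. Over these sites MSG replicate 3 was at 0.298%, MSG replicates 2, 4 and 6 at 46.8% to 47.7%, MSG replicates 1 and 5 at 96.0% and 97.6%, MRG replicate 3 at 70.8% and the other 5 MRG cows at 92.0% to 97.1%. The group means were 55.9% ± 36.5 and 91.7% ± 10.4, a difference of -35.8 points. It was -24.7 points without MSG replicate 3 and -44.2 points without MSG replicate 5. The site at 53509290 shows it singly, with 0, 27.9% and 88.2% as lowest, median and highest in MSG and 77.8%, 88.6% and 100% in MRG. Its means were 41.0% ± 35.1 and 88.9% ± 7.51.

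Intron 1 of ARHGAP15 also held a second order of cows, at 9 sites over 13.3 kb that interleave with sites of the first. There MSG replicates 2, 3, 4 and 6 and MRG replicate 1 were at 0 to 0.741%, MRG replicates 3 and 5 at 95% and 95.9%, and the other 5 cows at 41.7% to 52.7%. MSG cows averaged 14.7% ± 22.5 over these sites, and MRG cows 55.1% ± 36.3. The longest run of sites closer than 1 kb, 7 sites within 1248 bases from 53600483 to 53601730, mixes both orders and stood at 29.0% ± 27.4 and 68.6% ± 25.4.

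The ARHGAP15 tile covers part of that run (chromosome 2, 53601251 to 53601750, intron 1, 28.6 kb from the start). The MSG cows ran from 0 through 24.9% to 75.9% and the MRG cows from 38.4% through 70.1% to 98.2%. The means were 35.8% ± 29.6 and 73.6% ± 22.5 (SD, n = 6 each), a difference of -37.8 points. MSG replicates 1 and 5 lay among the MRG cows. The 4 listed sites within the tile were all lower in MSG and averaged 39.1% and 77.7%, near the values of the tile.

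The widest difference of ARHGAP15 was at the site nearest to its start, 7.43 kb inside intron 1 (53622934, plus strand). The MSG cows ran from 0 through 25.9% to 57.1% and the MRG cows from 40% through 100% to 100%, with means of 26.5% ± 24.97 and 82.9% ± 27.1. Of the higher sites, both strands of the CpG at 53455495 in intron 5 differed most. The means of its plus strand were 97.2% ± 4.43 and 58.2% ± 37.7, and those of its minus strand 98.9% ± 2.72 and 56.6% ± 39.7, where MRG cows ran from 0 through 52.1% to 100%. Of the 7 sites of ARHGAP15 with no cow at 0, 6 were higher in MSG and 1 lower, beside 57.3% higher among the 42667 such sites of the whole table.

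JAM2, the junctional adhesion molecule, lies on the minus strand of chromosome 1, and the authors' annotation used 2 models of it with different starts, of which the longer spans 10702387 to 10787934 (85.5 kb). Of the 36 sites, 32 were intronic, 3 in the promoter of the shorter model and 1 intergenic, and 35 lay inside the longer model. All 24 sites of intron 1 were higher in MSG, and the 6 sites of intron 2 and 2 of intron 4 were lower. Averaged over the 26 higher sites, the MSG cows ran from 17.2% through 77.4% to 93.3% and the MRG cows from 9.90% through 26.3% to 81.1%. The means were 69.2% ± 30.1 and 33.4% ± 28.1, with MSG replicate 5 among the low MRG cows and MRG replicate 1 among the high MSG cows. Over the 10 lower sites the means were 39.6% ± 21.7 and 77.4% ± 17.2, with the MSG cows from 0 through 41.7% to 62.7% and the MRG cows from 49.6% through 80.4% to 93.7%.

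One order of cows took in 21 of the 24 sites in intron 1 of JAM2, over 16.4 kb. MSG replicates 1, 2 and 3 stood at 90.7% to 95.5% and MRG replicate 1 at 80.9%, MSG replicates 4 and 6 and MRG replicates 5 and 6 at 41.4% to 60.4%, and MSG replicate 5 with MRG replicates 2, 3 and 4 at 0 to 4.88%. MSG cows averaged 65.8% ± 36.8 and MRG cows 29.7% ± 32.4. The difference was 36.1 points, and 30.1 to 49.2 points with any 1 cow left out. The longest run, 9 sites within 2479 bases from 10765556 to 10768034, belonged to this order and stood at 64.4% ± 37.9 and 30.1% ± 36.3.

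The widest rise in JAM2 was at 10751592 in intron 1, where the MSG cows ran from 0 through 85.4% to 100% and the MRG cows from 0 through 25% to 55.6%. Its means were 73.3% ± 37.8 and 26.5% ± 29.1 (SD, n = 6 each). At 10752036, where no MSG cow was at 0, the means were 70.7% ± 23.7 and 27.8% ± 30.3. The groups overlapped at both sites.

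The lower sites of JAM2 lay downstream, and MSG replicate 5 was at 0 at each of them. The widest fall among sites with all 12 cows was at 10730892 in intron 2, with MSG cows from 0 through 30.3% to 50% and MRG cows from 42.9% through 76.2% to 100%. Its means were 28.1% ± 16.8 and 74.2% ± 25.8. The site at 10733682 had means of 32.1% ± 19.3 and 70.1% ± 23.3. Both belonged to 6 sites of 1 order, at which 5 MSG cows stood at 27.6% to 44.6%, the sixth at 0, and the MRG cows at 46.2% to 93.0%. At each of the named sites the groups overlapped.

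Of the promoter sites of JAM2, both strands of the CpG at 10738295, upstream of the start of the shorter model, were lower in MSG. The plus strand stood at 29.6% ± 18.2 (n = 6) and 69.5% ± 15.0 (n = 5) and the minus strand at 29.3% ± 20.5 and 59.7% ± 27.8. The site 1449 bases inside that start (10735452) was higher in MSG, from 88.9% through 94.3% to 100% against 46.2% through 60.1% to 90.9% in MRG. Its means were 94.96% ± 4.37 and 65.5% ± 17.1, and only MRG replicate 1 reached the MSG cows.

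The site at 10735452 shared its order of cows with a site of intron 1 and a site 13.5 kb upstream of the longer model, 66.0 kb apart from end to end. Averaged over the 3 sites, the MSG cows stood at 87.0% to 96.3% and the MRG cows at 40.8% to 87.5%, with means of 92.6% ± 3.70 and 63.2% ± 19.5. They were the only sites of JAM2 with no cow at 0, and all 3 were higher in MSG.

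Some orders of cows recurred beyond the genes on their own chromosomes. Of the 20 orders, 10 had no listed site of another gene or of none within 1 Mb that was alike. Most of these 10 were single sites, and the largest was the order of 4 lower sites in JAM2 (0 of 309). For the DOCK2 order of 8 sites, 34 of the 252 listed sites within 1 Mb that belonged to other genes or to none (13.5%) had an absolute r of 0.9 or more with its per-cow mean, against 0.0609% of the listed sites on other chromosomes. These lay up to 666 kb away and included all 6 listed sites of SPDL1, a spindle protein gene next to DOCK2, 9 of 55 of INSYN2B, which overlaps DOCK2, and 15 of 52 of MIR2285CT. For the ARHGAP15 order of 24 sites the shares were 3.47% (10 of 288, 4 of them at the neighbouring gene KYNU, which encodes kynureninase) and 0.168%. For the JAM2 order of 21 sites they were 0.341% (1 of 293) and 0.0207%. For the 3 JAM2 sites with no cow at 0 they were 6.93% (21 of 303) and 0.242%. The sites alike were 9 of 37 of LOC112448359, 4 of 124 of LOC112448277 and 2 of 6 of LOC112448274. The others were 3 of 25 of ATP5PF, a neighbouring gene of mitochondrial ATP synthase, and 3 of 83 of APP. These shares describe 12 cows whose sites had been selected on 1 contrast, and they carry no test.

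Genes with the most similar deviations between cows were sought among the 3620 other genes with at least 10 listed sites, as Pearson's r over the 12 cows of the deviations from the group means, taken over the sites of each gene's more frequent direction. For DOCK2 they were LCP2 (r = 0.95), which encodes an adaptor of T cell receptor signalling and lies 0.585 Mb away, MIR2285DL-1 on chromosome 10 (r = 0.947) and RANBP17 on chromosome 20, 1.27 Mb away (r = 0.937). For ARHGAP15 they were FAT4 on chromosome 17 (r = 0.922), COPS7B on chromosome 2 but 66.0 Mb away (r = 0.874) and CLEC4E on chromosome 5 (r = 0.870). For JAM2 they were MIR125B-2 (r = 0.905), MIR2285AO-2 (r = 0.871) and B4GALT4 (r = 0.844), all on chromosome 1 and 9.30, 142 and 53.3 Mb away. With all sites of a gene averaged, the gene of highest r changed to MIR218-2 for DOCK2 (0.968), CLEC4E for ARHGAP15 (0.902) and CAMKMT for JAM2 (0.842). CLEC4E was already named above for ARHGAP15. FAT4 stayed next to it there, and MIR2285DL-1 stayed among the highest for DOCK2. These are the extremes of many comparisons over 12 cows and were not tested.

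The wider migration machinery was described through 3 lists of genes. Of the other 22 genes of RAC activation and actin, 17 had a listed site. Of their 145 sites, 68 were higher in MSG (46.9%, median difference -25.2 points), beside 52.7% of all listed sites. TIAM1, another exchange factor of RAC, had 7 of 50 higher, and its 43 lower sites averaged 38.3% ± 41.3 in MSG and 75.6% ± 22.3 in MRG. DOCK10, of the same family as DOCK2, had 23 of 29 higher, at 92.8% ± 4.13 and 60.6% ± 33.1. Listed sites of both directions occurred among the remaining genes of the list. The authors' table holds no site near a difference of 0, so the median of a list jumps in sign as its share passes 50%. With DOCK2 included, the same list had 50% of sites higher and a median of -1.73 points.

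Of the other 14 genes of endothelial junctions and adhesion, 10 had a site and 28 of 70 sites were higher (40%, median difference -27.9 points). CLDN5, a claudin of endothelial tight junctions, had 5 of 20 higher, and its 15 lower sites averaged 29.98% ± 46.5 and 69.2% ± 39.1. JAM3, the binding partner of JAM2, had 8 of 19 higher, and its 11 lower sites averaged 46.2% ± 27.4 and 78.0% ± 18.4. A list of 23 genes of integrins and selectins also held the selectin ligand SELPLG and the small GTPase RAP1A. Of these 23 genes, 15 had a site and 49 of 89 sites were higher (55.1%, median difference 23.6 points). ITGA6 had 9 of 25 higher and ITGA1 15 of 19, and the 15 averaged 43.7% ± 38.3 and 16.03% ± 19.2. Over all listed sites 52.7% were higher and the median difference was 22.7 points, so the share of the integrin and selectin list was near that of the whole table.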

How the data were processed

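Percent methylation per cow was deposited by the authors in 2 tables, per the file headers, for single CpG cytosines by strand and for tiles of 500 bases. Of the tools used upstream, the submitters' processing notes list ChIPseeker 1.32.1, DRAGEN, Bismark and fastp 0.23.1, without saying what each did, and give ARS-UCD1.2 as build. The authors' difference in percentage points (a score with a sign, MSG minus MRG), p-value and q-value were deposited beside them, and the differential test was not given in the sources used here. In the authors' deposited tables the largest q-value of the 103 sites was 0.0093. The labels gave no replicate numbers, so numbers only name the cows in the order of the records and pair none. The tile table has 36 further columns of coverage and read counts that name no cow. They were not used, and depth is unknown.

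The members and gene lists were chosen with earlier results of these data known. Group means, SDs and differences were computed per site over cows, giving each cow equal weight (Python 3.11.15, NumPy 2.4.6, pandas 2.3.3, SciPy 1.17.1). The difference differed from the authors' by a median of 2.93 points and had the same sign at every site. No test between groups was run. At least 10 cows had a value at each of the 103 sites, and all 12 at 78. The genes' sites were named as all tiles, promoter or exon sites, sites without overlap, the 2 widest differences in each direction with all 12 cows, and the run with the most sites. From each gene list the 2 genes with the most sites were named, and the result of 1 further list is not reported here. Functions were tested on simulated data. Gene neighbours came from RefSeq annotation of ARS-UCD2.0, without coordinates.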

Additional observations from a re-analysis of the deposited data

Results flagged for a closer look

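In 7 of 84 groups of cows examined, 1 cow stood farther from the others than Dixon's limit for its group size allows. Chance gives about 1 in 20, and many of the groups share cows and sites. In ARHGAP15, MSG replicate 6 was apart at 90.1% over the 8 higher sites, which include the site 53245981 where it was at 41.7%. It was also apart at 93.3% at the site 53455496, where MSG replicates 1 to 5 were all at 100% and any departure is flagged. MRG replicate 3 was apart at 70.8% over the 24 sites of the largest order of cows. In DOCK2, MSG replicate 4 was apart at 45.5% at the promoter site 1566799 and at 57.3% over the 8 sites of its order. In JAM2, MSG replicate 5 was apart at 0% at the site 10751592, and MRG replicate 2 at 54.8% over 4 lower sites of introns 2 and 4.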

How the results depend on the processing

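The percentages of sites higher in MSG were recomputed under other settings and with each cow left out. Once every site with a cow at 0 was dropped, the share of ARHGAP15 was 85.7% (6 of 7 sites, beside 57.3% of all such sites), above 50% where it had been 17.4%, and those of DOCK2 (1 site) and JAM2 (3 sites) were both 100%. At an authors' deposited difference of 40 points or more, which is not the difference of cow means given above, it was 0% of 17 sites in ARHGAP15 and 40% of 5 sites in DOCK2. Counting each order of cows once was a setting chosen after seeing the data. The share was then 37.5% in ARHGAP15, 57.1% (4 of 7) in DOCK2 and 60% (3 of 5) in JAM2. With each run of sites counted once it was 26.3% in ARHGAP15, 78.6% in DOCK2 and 57.1% (8 of 14) in JAM2. Of all listed sites, each counted singly, 52.7% were higher. These settings leave few sites or groups of sites, and dropping sites with a cow at 0 uses the values that set the direction. The cause was not tested. Leaving out a cow changed none of the shares, which the selection of sites for their difference nearly fixes. With a cow left out, the mean difference ran from 26.2 to 38.5 and from -44.4 to -29.1 points over higher and lower sites of ARHGAP15, from 20.4 to 38.7 and from -43.9 to -29.1 in DOCK2, and from 30.9 to 46.1 and from -43.4 to -29.9 in JAM2. The number of sites without overlap was 1 to 4 of 103 with a cow left out (3.69% to 4.38% of all listed sites). At a link of r = 0.9 the orders of cows numbered 12 instead of 8 in ARHGAP15, 8 instead of 7 in DOCK2 and 11 instead of 5 in JAM2. At r = 0.7 they numbered 6, 6 and 4. No paired analysis was run because the labels name no pairs of cows, and whether cows had been matched is unknown.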
